A study of Setaria viridis with 26 samples.

Results

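Coumarins and lignin precursors are made from phenylalanine by the phenylpropanoid pathway. The shikimate pathway, which ends at chorismate synthase, supplies phenylalanine. Phenylalanine ammonia-lyase (PAL) makes cinnamic acid from it, cinnamate 4-hydroxylase (C4H) and 4-coumarate-CoA ligase (4CL) make *p*-coumaroyl-CoA, and hydroxycinnamoyltransferase (HCT), *p*-coumaroyl ester 3-hydroxylase and O-methyltransferases lead on to feruloyl and sinapyl units of lignin and to the precursors of coumarins. In grasses these products stiffen and protect cell walls and take part in defence.

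The genes described here are the 64 genes of *Setaria viridis* (green foxtail, a small C4 grass) that were annotated with coumarin or cinnamic acid biosynthesis in a Gene Ontology (GO) table and were also present in a gene co-expression network of 25298 genes. The GO table assigned the coumarin term to 98 genes and the cinnamic acid term to 12 genes, 100 genes in all. Of these, 18 were set aside because they also carried a term for lignin catabolism (10 genes) or brassinosteroid biosynthesis (8 genes), which left 82 genes, and 64 of the 82 (78.0%) were in the network, against 66.0% of all 38334 annotated genes. The other 18 were absent from the network's gene list and have no value here.

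The 64 genes are a coumarin list rather than a cinnamic acid list. The coumarin term was carried by 62 of them and the cinnamic acid term by 2, and no gene carried both. All 10 cinnamic acid genes that were set aside were annotated with PAL activity, the step that makes cinnamic acid, and 0 of the 64 genes had that activity. The 2 remaining cinnamic acid genes, Sevir.5G285800 and Sevir.5G403300, were annotated as transcription factors. The genes are therefore called coumarin-annotated genes below. The annotation itself is computational, and for 26 of the 64 genes the term came from a reciprocal best hit in Arabidopsis. Roles named after an Arabidopsis gene are known from Arabidopsis and were not measured in *S. viridis*.

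The series compared inflorescence primordia of the *ful2* mutant, sampled at 9-10, 15 and 21 days after sowing (DAS), with those of wild-type A10.1 plants, sampled at 8-9, 10-11 and 17 DAS, with 4 replicates for each of the 6 groups (24 RNA samples) and 2 further DNA samples of the mutant. The *ful2* mutant (*barrel1*) carries a chemically induced change in the start codon of *SvFul2*, a MADS-box gene, and each RNA sample was a pool of hand-dissected primordia, so that a level is an average over several meristem types. The authors used only wild-type samples, some from an earlier study, to build the network. It holds no *ful2* sample, and what follows describes which genes varied together over wild-type development, not how they responded to loss of *SvFul2*. No value of a single sample was used, so levels, depth and tissue markers were not checked.

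In this network an edge joins 2 genes, and its weight is their topological overlap, a score that is high where 2 genes have similar expression profiles and share neighbours. The network is signed, so that genes with opposite profiles have low weights. Only pairs with a weight of at least 0.02 were listed (43548751 pairs, 13.6% of all gene pairs, with a median of 0.0412 and a maximum of 0.393), and the weight of an unlisted pair is unknown. Each weight is a single value over all samples and has no replicate error. The comparisons below are therefore descriptions set beside the same measure over all genes, with no test.

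The 64 coumarin-annotated genes lay in 19 of the 26 co-expression modules, a number that was not set beside that of other gene sets. Turquoise held 8 of them (12.5%, against 15.5% of all network genes), magenta 7 (10.9% against 4.98%) and blue 6 (9.38% against 10.5%). Lightyellow held 4 (6.25% against 0.905%) and darkgreen 3 (4.69% against 0.549%), and both are small modules, of 229 and 139 genes. The magenta genes included chorismate synthase (Sevir.9G469600), DAHP synthase (Sevir.2G406000), which opens the shikimate pathway, methionine adenosyltransferase (Sevir.3G054100), which makes the methyl donor S-adenosylmethionine, a long-chain acyl-CoA synthetase (Sevir.5G274900), a homolog of the Arabidopsis phosphate exporter PHO1 (Sevir.1G367100), and the transcription factor Sevir.5G403300.

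**Figure D1:**
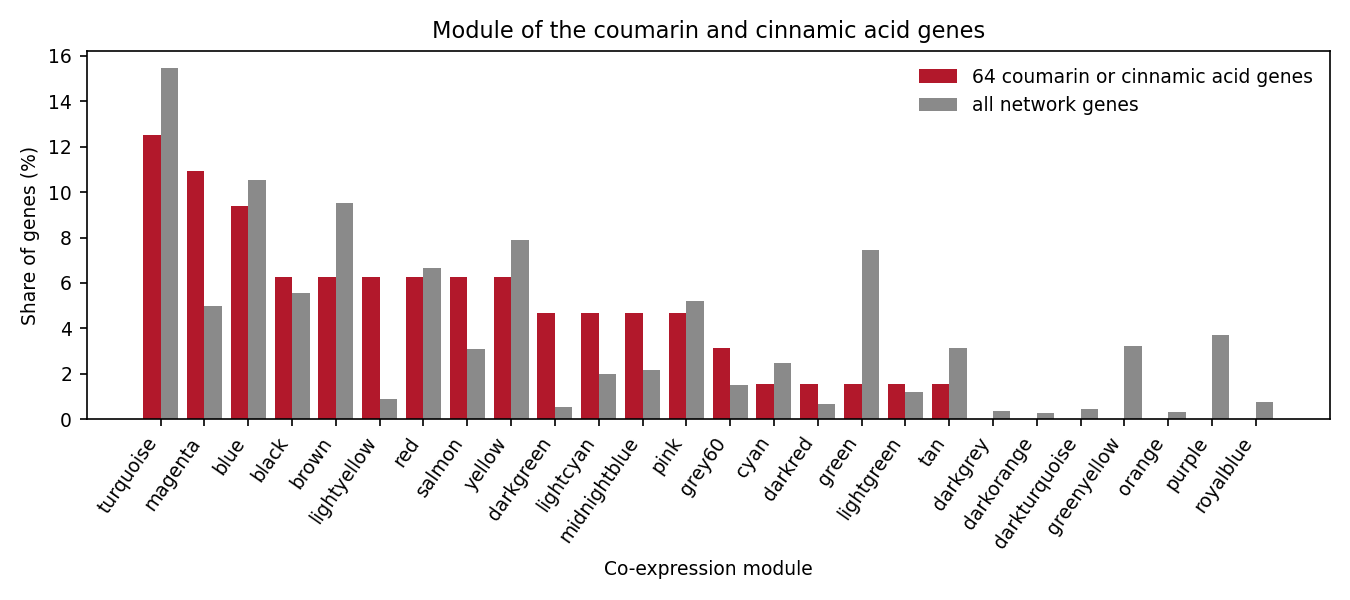
Share of genes (%) in each co-expression module, for the 64 coumarin-annotated genes (red) and all 25298 network genes (grey). No module held more than 12.5% of the coumarin-annotated genes, and magenta held 10.9% of them against 4.98% of all genes.

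Taken as a list, the coumarin-annotated genes were linked with each other about as often as other genes of the same modules. Of their 2016 pairs, 259 were listed (12.8%, against 13.6% of all gene pairs and 12.1% of gene pairs drawn from the same modules). Within a module, 75 of 113 pairs were listed (66.4%, against 62.3% of all gene pairs within a module and 62.1% for the modules in question), and 184 of 1903 pairs that crossed modules were listed (9.67%). The share differed between genes given the term in different ways. Among the 26 genes with the term from a reciprocal best hit, 71 of 325 pairs were listed (21.8%, against 15.8% of gene pairs from the same modules), and among the other 38 genes 68 of 703 (9.67% against 11.1%). The 26 genes also had a higher median connectivity within their modules (given below), which the share from the same modules does not account for. The cause of the difference was not tested. The median weight of the 259 edges was 0.0342. These edges joined 61 of the 64 genes into 1 connected group. The 3 genes left without an edge to another were Sevir.5G285800, Sevir.8G059700, which is also annotated as a transcription factor, and Sevir.9G309800, an ABC transporter whose Arabidopsis best hit is ABCG37. For 0 of the 64 genes was the heaviest partner in the whole network another coumarin-annotated gene, and for 40 it lay in the gene's own module. The list is a very small part of the network, so a count of 0 is no separate result. Neither count was set beside the same count over all genes.

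The heaviest of the 259 edges joined the first and the last enzyme of the shikimate pathway. DAHP synthase and chorismate synthase had a weight of 0.178, above 98.2% of all listed edges. Chorismate synthase also took part in heavy edges to HCT (Sevir.7G164100, 0.131), to Sevir.9G310500, a gene with no role given (0.130), and to methionine adenosyltransferase (0.108). The other heavy edges belonged to different genes. The mRNA-binding gene Sevir.5G274100, whose Arabidopsis best hit is ECT8, was joined to the polyamine oxidase Sevir.3G021700 (0.148), to Sevir.5G069200, a reductase of the pinoresinol and isoflavone reductase family (0.132), to Sevir.7G295300, which has a homeodomain-like fold (0.122), and to the long-chain acyl-CoA synthetase Sevir.3G051900 (0.117). The polyamine oxidase was also joined to the phenolic glucosyltransferase Sevir.8G184500 (0.107).

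**Figure D2:**
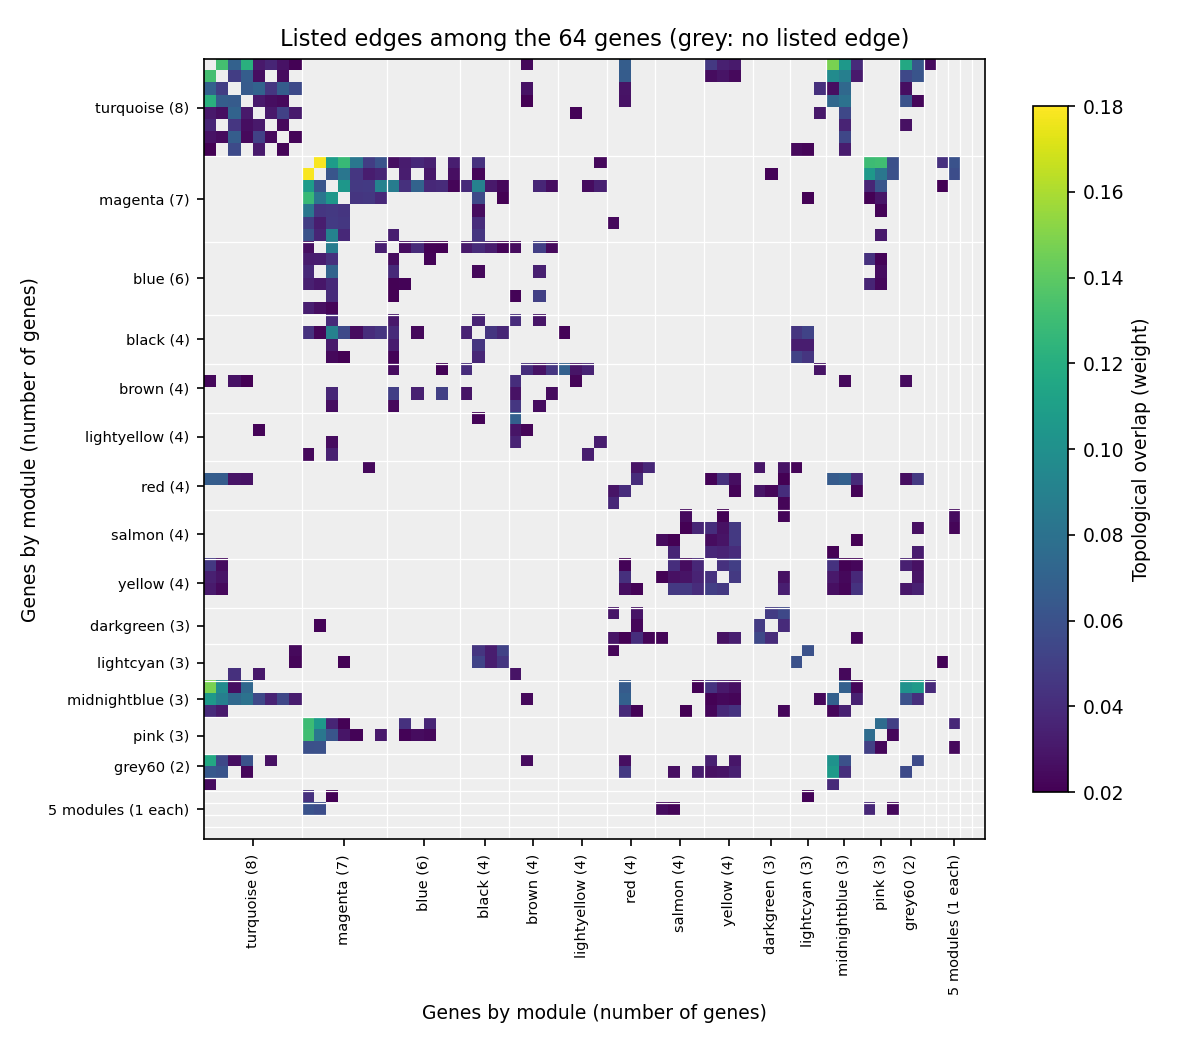
Weights (topological overlap, colour scale) of the 259 listed edges among the 64 coumarin-annotated genes, ordered by module and, within a module, by connectivity. The heaviest cells lie in magenta with pink and in turquoise with midnightblue and grey60, and the block between turquoise and magenta is empty.

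The coumarin-annotated genes fell on separate sides of the network around these 2 highly linked genes, which were chosen after their values had been seen. Of the other 62 genes, 18 (29.0%) had an edge to chorismate synthase, against 29.5% of all genes, and 18 (29.0%) had an edge to Sevir.5G274100, against 32.2% of all genes. No gene was in both sets, and 26 genes were in neither. All network genes outside those 29.5% and 32.2% were also linked to neither, so that lying in neither set is not particular to the list. Between the sets 0 of 324 pairs were listed, against 0.0337% of the pairs between all network genes linked to the one and all linked to the other. Among the genes linked to chorismate synthase 55 of 153 pairs were listed (35.9%, against 42.8% among all genes linked to it), and among those linked to Sevir.5G274100 78 of 153 (51.0% against 50.1%). The separation was therefore not particular to the coumarin-annotated genes, and 0 of the 25298 network genes had a listed edge to both. Chorismate synthase had 1206 edges in magenta, 1963 in blue, 1299 in pink, 1421 in green and 0 in turquoise, whereas Sevir.5G274100 had 3839 in turquoise, 1536 in yellow and 0 in magenta.

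**Figure D3:**
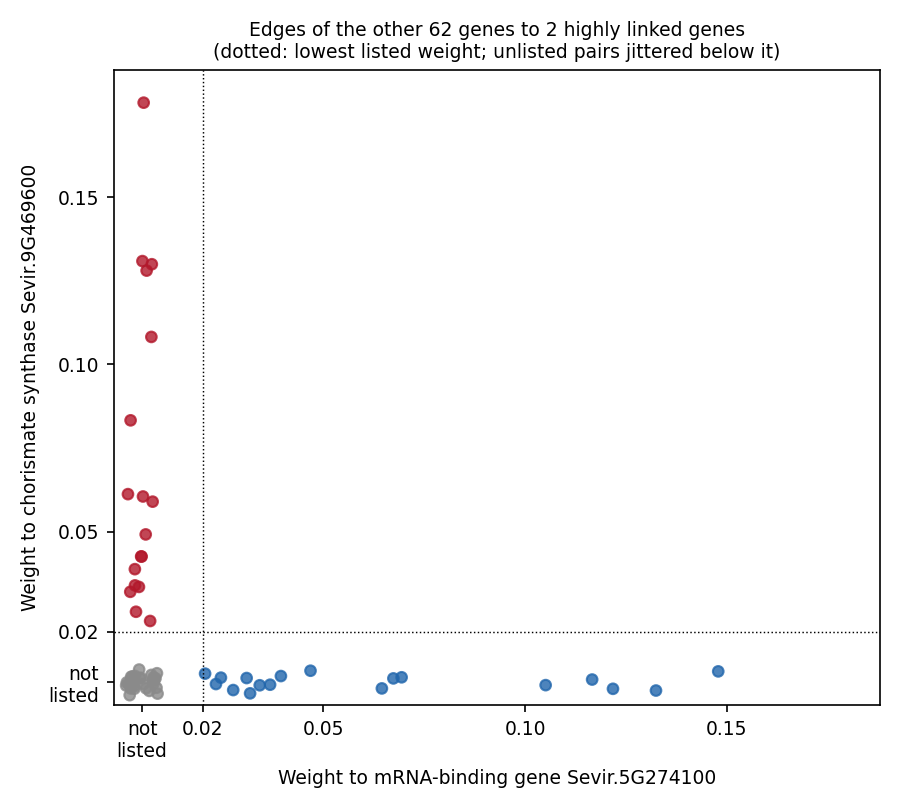
Weight of the edge of each of the other 62 coumarin-annotated genes to Sevir.5G274100 (horizontal axis) and to chorismate synthase (vertical axis), with unlisted pairs drawn below the dotted lines at 0.02. The 18 genes linked to chorismate synthase (red) and the 18 linked to Sevir.5G274100 (blue) do not overlap, and 26 genes (grey) are linked to neither.

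Among the roles, precursor and methyl donor supply had the highest share of listed pairs within the role. Its 5 genes are DAHP synthase, chorismate synthase, methionine adenosyltransferase, a gamma-glutamyl hydrolase (Sevir.3G181700), and a cysteine synthase (Sevir.3G415300). Of their 10 pairs, 5 were listed (50.0%, against 18.9% of gene pairs from the same modules). Each listed pair included chorismate synthase (7471 edges) or methionine adenosyltransferase (6255 edges), against a median of 3069 edges for all genes. The share from the same modules does not account for such numbers of edges. The gamma-glutamyl hydrolase had no listed edge to the other genes of the role, and was linked to Sevir.5G274100 (0.0468). Between these 5 genes and the 12 phenylpropanoid and lignin enzymes, 20 of 60 pairs were listed (33.3% against 16.4%). The median connectivity percentile of the 5 genes was 84.0, where the percentile ranks the sum of a gene's edge weights within its own module and all network genes have a median of 50.0. Chorismate synthase ranked 2 of the 1260 magenta genes (percentile 99.9), DAHP synthase 115 (90.9) and methionine adenosyltransferase 202 (84.0). Methionine adenosyltransferase had edges to 23 of the other 63 coumarin-annotated genes (36.5%, against 24.7% of all genes), the most of any of them, including the cinnamic acid transcription factor Sevir.5G403300 (0.0912). Since it was singled out for the highest number, a share above that of all genes is no separate result. Cysteine synthase lay at the other end, at rank 207 of the 229 lightyellow genes (percentile 9.65).

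The enzymes of the phenylpropanoid and lignin route were linked with each other about as often as other genes of the same modules. The 12 genes lay in 9 modules, a number that was not set beside that of other gene sets. Of their 66 pairs, 11 were listed (16.7%, against 15.6% of gene pairs from the same modules), none with a weight above 0.0419. C4H (Sevir.5G366500) was in green, HCT in pink, and *p*-coumaroyl ester 3-hydroxylase (Sevir.3G199000) in blue. The 2 4CL genes were in yellow (Sevir.4G201300, best hit 4CL2) and blue (Sevir.9G541400) and had no listed edge. The gene whose best hit is coumarin synthase (COSY), Sevir.4G067300, was in salmon at percentile 53.0, with 1676 edges and 7 partners among the coumarin-annotated genes (11.1% of the others, against 6.63% of all genes), 1 of them C4H (0.0219). Some edges to chorismate synthase were heavier than any edge among these enzymes: C4H had a weight of 0.0605 with it and HCT 0.131. Chorismate synthase had many heavy edges, with a median weight of 0.0641. Of its edges, 47.1% were lighter than that to C4H and 87.5% were lighter than that to HCT.

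Caffeoyl-CoA O-methyltransferase (CCoAOMT), which methylates the lignin precursor caffeoyl-CoA, was the largest of the enzyme families on this route, and its copies differed. The 5 genes lay in 4 modules, and 2 of their 10 pairs were listed (20.0%, against 10.7% of gene pairs from the same modules). Sevir.4G059400 (best hit CCoAOMT1) and Sevir.2G259200 were in blue, at percentiles 24.5 and 43.8. Sevir.6G204900 was in red (59.0), its neighbour Sevir.6G205000 in turquoise (4.71), and Sevir.6G205100 in lightcyan (30.1). The neighbouring copies Sevir.6G204900 and Sevir.6G205000 had no listed edge, whereas Sevir.6G205000 and Sevir.6G205100, with another annotated locus between them, had a weight of 0.0239. The neighbouring glutathione transferases Sevir.9G554200 (black) and Sevir.9G554300 (red) had no listed edge. Reads of near-identical copies can be divided between them in counting, so that the values of neighbouring copies are uncertain.

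The 8 reductases of the pinoresinol and isoflavone reductase family, which act on lignans and related phenolics, lay in 6 modules with 3 of 28 pairs listed (10.7% against 15.3%). Sevir.5G069200 had the most edges (6191) and the heaviest partner (Sevir.7G320400, 0.235), while Sevir.3G329400 had 416 edges. The 5 long-chain acyl-CoA synthetases, which activate fatty acids for wax, cutin and suberin, lay in 5 modules with 2 of 10 pairs listed (20.0% against 5.73%). These 2 edges were light (0.0297 and 0.0250), above only 29.0% and 16.7% of all listed edges. Sevir.3G051900 (best hit LACS1) ranked 18 of the 376 grey60 genes, and Sevir.8G164900 (best hit LACS2) had 15 partners among the coumarin-annotated genes (23.8% of the others, against 16.7% of all genes). The 4 glutathione transferases and 2 phenolic glucosyltransferases, which conjugate small molecules, had a median percentile of 65.2.

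The 8 transcription factors and DNA-binding proteins had the lowest median percentile of the roles, 22.2. Of their pairs, 0 of 28 were listed, against 11.0% of gene pairs from the same modules. That share does not account for their few edges, with a median of 917 against 3069 for all genes. Sevir.7G295300 differed, at percentile 60.0 with 5825 edges and 12 partners among the coumarin-annotated genes (19.0% of the others, against 23.0% of all genes). The cinnamic acid gene Sevir.5G285800 ranked 1988 of 2001 in yellow (percentile 0.65), and its heaviest edge, to Sevir.5G297700, weighed 0.0391. Sevir.3G237700 ranked 2629 of 2668 in blue (1.46). The other cinnamic acid gene, Sevir.5G403300, was at percentile 24.3 in magenta and had 7 partners among the coumarin-annotated genes (11.1% of the others, against 9.24% of all genes), and the pair of cinnamic acid genes had no listed edge. Sevir.2G300900 has as best hit MYB4, a repressor of C4H in Arabidopsis, and lay in black at percentile 12.3.

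Several genes on the list belong to other processes. In Arabidopsis the best hits of 3 of them act in the synthesis or perception of strigolactones, hormones that restrain shoot branching (MAX1 and D14), or in the perception of karrikins, which promote germination (KAI2). Sevir.5G287900 (best hit MAX1) was in midnightblue at percentile 82.1 with 18 partners among the coumarin-annotated genes (28.6% of the others, against 28.2% of all genes), Sevir.5G274100 with a weight of 0.105 among them. Sevir.9G504800 (best hit D14) was in brown at percentile 14.8, and Sevir.9G363200 (best hit KAI2) in lightyellow at percentile 39.0. HMG-CoA reductase (Sevir.2G267700), of the mevalonate pathway, was in brown at percentile 76.5. The ABC transporter Sevir.9G309800 had the fewest edges of the 64 genes (217), and Sevir.5G274100 the most (8136, against a maximum of 9327 over all genes).

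Over all roles, connectivity was moderate. The median percentile of the 64 genes was 38.8 (quartiles 21.1 and 62.7), and 27 genes lay above and 37 below the median of their module. The median was 52.8 for the 26 genes with the term from a reciprocal best hit and 33.7 for the other 38. A percentile of at least 90 was reached by 4 genes (6.25%, against 10.0% of all genes), which were chorismate synthase, DAHP synthase, Sevir.3G021700 (rank 16 of 548 in midnightblue, 97.3) and Sevir.3G051900 (95.5), and 5 genes were below 10 (7.81% against 10.0%). The median number of edges was 2332.5, against 3069 for all genes.

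**Figure D4:**
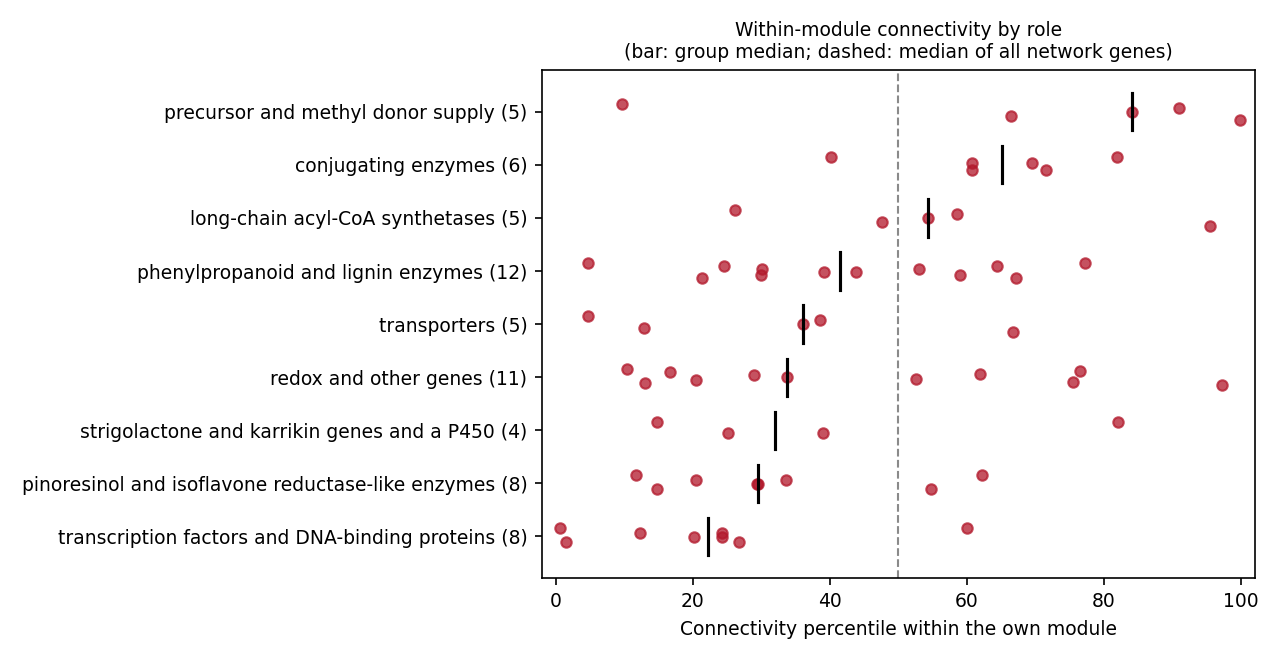
Connectivity percentile within the own module (0 to 100) of each of the 64 coumarin-annotated genes (points) by role, with the number of genes in parentheses. Black bars are group medians, which run from 84.0 for precursor and methyl donor supply to 22.2 for transcription factors, and the dashed line marks the median of all network genes.

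Chorismate synthase was also heavily linked to some genes of the pathway that are not on the list. Other edges were light: those to further PAL genes weighed 0.0574, 0.0555 and 0.0302, below its median weight of 0.0641. Its edge to Sevir.1G288700, a 4CL gene in magenta (best hit 4CL3), weighed 0.182, and its edge to Sevir.7G178300, the PAL gene with best hit PAL2, weighed 0.174, above 98.9% of its edges. The edge to Sevir.4G022900 (best hit EPSP synthase, the step before chorismate synthase) weighed 0.165, that to Sevir.7G095100 (best hit arogenate dehydratase ADT6, the last step to phenylalanine) 0.158, and that to Sevir.3G295500, the other C4H gene of the network, 0.139. Counted over whole annotation lists, it was linked to 7 of 12 other chorismate biosynthesis genes (58.3%, against 44.8% of all genes in their modules). For phenylalanine biosynthesis it was linked to 3 of 9 genes (33.3% against 38.4%). Other lists hold the genes annotated with an enzyme activity, which was not measured. Here it was linked to 4 of 8 genes for PAL (50.0% against 42.9%), 6 of 10 for 4CL (60.0% against 59.4%) and 7 of 13 for HCT (53.8% against 35.6%). Chorismate synthase was also linked to 7 of 17 genes for cinnamoyl-CoA reductase (41.2% against 24.6%) and 5 of 12 for cinnamyl-alcohol dehydrogenase (41.7% against 26.1%). Of all lists counted, only that for phenylalanine biosynthesis lay below the share of its modules. The difference was small for 4CL. The lists are short, some share genes, and none of these differences was tested.

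The same lists were set beside all 64 genes. Of the pairs between the coumarin-annotated genes and the 8 PAL genes 7.42% were listed, against 11.8% of gene pairs from the same modules. The share was 16.5% for the 11 chorismate biosynthesis genes not on the list (against 12.8%), 15.5% for the 9 phenylalanine biosynthesis genes (13.1%), 14.0% for 56 flavonoid biosynthesis genes (12.2%), 12.6% for 74 lignin biosynthesis genes (12.4%), 11.0% for 19 suberin genes (12.4%), and 12.2% for 71 genes of secondary cell wall biogenesis (12.4%). Lignin catabolism, one of the terms used to set genes aside, had 45 genes in the network, of which 25 were in magenta, and 11.2% of their pairs with the coumarin-annotated genes were listed (13.1%). Among the PAL genes themselves 3 of 28 pairs were listed (10.7% against 13.3%). The 5 genes outside the list with the most edges to it were Sevir.3G345100, Sevir.3G189800 and Sevir.7G151000 in blue, and Sevir.6G195800 and Sevir.5G251700 in magenta. Each reached 24 of the 64 genes (37.5%), against 26.3% to 28.5% of all genes. Because they were picked for the highest number of edges to the list, a share above that of all genes is no separate result.

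*SvFul2*, the gene mutated in this study, had a listed edge to 2 of the 64 genes (3.13%, against 7.75% of all genes). These were the D14-like gene Sevir.9G504800 (0.0358) and HMG-CoA reductase (0.0337), both in brown as *SvFul2* is, and neither belongs to the phenylpropanoid route. Its paralog *SvFul3* also had 2 (3.13% against 11.8%), *SvFul1* 6 (9.38% against 6.33%), and *SvFul4* 13 (20.3% against 22.2%). Set beside gene pairs from the same modules, the order turned for *SvFul1* (9.38% against 10.4%) and *SvFul4* (20.3% against 14.2%) and not for *SvFul2* and *SvFul3* (3.13% against 13.1% each). *SvFul4* is in magenta, and its heaviest edges on the list were to chorismate synthase (0.131), DAHP synthase (0.0839) and the PHO1-like gene Sevir.1G367100 (0.0730).

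Of the 15 developmental regulators examined, the MADS-box gene *SvMads51* reached the most coumarin-annotated genes, 18 (28.1%, against 15.9% of all genes and 14.2% of gene pairs from the same modules). As *SvMads51* was singled out for the highest count of the 15, the size of this difference is no separate result. Its heavy edges included those to the glutathione transferase Sevir.9G554200 (0.103), chorismate synthase (0.0977) and methionine adenosyltransferase (0.0918). *SvSid1*, an AP2-like gene whose maize counterpart acts in spikelet determinacy, reached 12 (18.8% against 13.8%), with 0.144 to chorismate synthase, above 99.0% of all edges of *SvSid1*. The related *SvIds1* reached 7 (10.9% against 9.62% of all genes, and against 14.2% from the same modules), also with chorismate synthase first (0.0907), and the magenta bHLH gene Sevir.2G248500 reached 14 (21.9% against 19.5%), with 0.131 to chorismate synthase. All 5 of these magenta regulators, *SvFul4* included, were linked to chorismate synthase, DAHP synthase, methionine adenosyltransferase and HCT. Each of these enzyme genes, taken singly, was also linked to most magenta genes. The share of magenta genes linked to all of them was not counted. In this module of 1260 genes, chorismate synthase had 1206 edges, DAHP synthase 1112, methionine adenosyltransferase 1046 and HCT 780. Taken singly, these links are therefore not particular to the regulators.

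The regulators of turquoise and cyan were linked to the other side. *SvMads5* reached 9 genes (14.1% against 15.6%), led by the polyamine oxidase Sevir.3G021700 (0.124) and Sevir.5G274100 (0.119). *SvMads34* reached 10 (15.6% against 25.3% of all genes, and against 10.4% from the same modules), led by Sevir.5G274100 (0.0844), *SvMads56* reached 7 (10.9% against 19.0%, and against 10.4% from the same modules), led by Sevir.3G021700 (0.114), and *SvMads37.1* reached 7 (10.9% against 18.5%), led by Sevir.5G274100 (0.0919). The meristem genes of tan had few edges to the list: *SvRa2* reached 3 (4.69% against 7.36%), *SvKn1* 2 (3.13% against 11.1%) and *SvFea4* 1 (1.56% against 6.93%). For *SvRa2*, *SvKn1* and *SvFea4* these included Sevir.8G059700, a transcription factor of tan with no edge to any other coumarin-annotated gene.

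**Figure D5:**
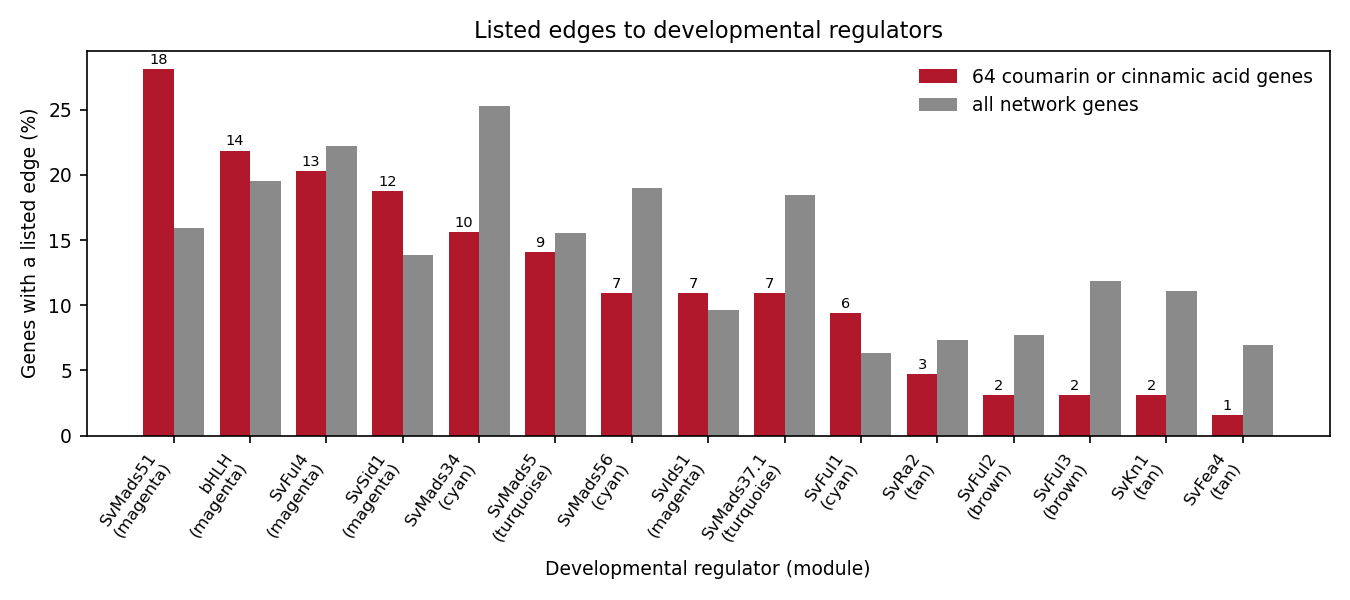
Share (%) of the 64 coumarin-annotated genes (red, with their number) and of all network genes (grey) that have a listed edge to each of 15 developmental regulators, with the regulator's module in parentheses. *SvMads51* reached 28.1% against 15.9%, and *SvFul2* 3.13% against 7.75%.

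Beyond the terms that defined the list, the coumarin-annotated genes shared a few others. Response to wounding was carried by 52 of the 64 genes (81.3%, against 2.13% of network genes), response to cadmium ion by 27 (42.2% against 3.16%), and positive regulation of flavonoid biosynthesis by 26 (40.6% against 0.672%). Lignin biosynthesis was carried by 10 of them (15.6% against 0.332%). These terms come from the same computational annotation as the coumarin term and are no independent measurement.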

How the data were processed

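Reads of wild-type samples were quantified by the authors with Salmon 0.13.0 on primary transcripts of *S. viridis* v2.1, variance-stabilized, and used for a signed network with WGCNA (biweight midcorrelation). Edge weights were deposited by the authors as a score that gives the topological overlap of each pair. Module colours and the GO annotation (GOMAP pipeline) were also made by the authors. The minimum weight lowers the connectivity of genes with many weak edges. The 3 deposited tables hold 0 columns of single samples, so differential expression and depth were not analysed here.

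Genes were chosen by GO term, with the 678 assignments marked NOT left out. Shares of listed pairs were set beside the share of all gene pairs from the same modules, each pair of modules weighted by its number of pairs of coumarin-annotated genes. Connectivity is the sum of listed weights within the own module, as a percentile. No test was made. Of the list, 1 gene is counted in the totals but not reported by itself here. The genes named were the cinnamic acid genes, those of the 10 heaviest edges among the list, the 5 highest and lowest percentiles, their heaviest partners, neighbouring loci, regulators with an edge, and the 5 outside genes with most edges, and members of a role where it is described. Members and lists were chosen with earlier results of these data known, and roles were assigned from the annotation. Code was tested on simulated data. Tables were read with pyarrow 21.0.0 and pandas 2.3.3 under Python 3.11.15, values were computed with numpy 2.4.6 and scipy 1.17.1, and plots were drawn with matplotlib 3.10.9. The alternatives were heavier edges, other gene choices, and other measures of connectivity.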

Additional observations from a re-analysis of the deposited data

How the results depend on the processing

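Of 39 values of 8 results recomputed under 8 alternative settings, 27 moved by less than the counting interval or 1.5 times, and 12 moved by more. Listed shares fell with a higher minimum weight by construction. With a minimum of 2 times the lowest weight for an edge, 4.96% of the coumarin-annotated pairs were listed (7.05% of all gene pairs, and 5.74% from the same modules), and 35.4% within a module (38.8% in the modules in question). With the heaviest 10% of edges the shares were 0.496% (1.36% and 0.887%) and 4.42% (9.04%). Under both settings 0 genes had an edge to *SvFul2*. With the lignin catabolism and brassinosteroid genes kept, 11.1% of pairs (12.1% from the same modules) and 54.3% of pairs within a module (59.3%) were listed. Both shares were then below those of the modules, whereas in the main list both were above. With only the 26 genes whose term came from a reciprocal best hit, 11 modules held a gene, magenta held 23.1% of them, and 21.8% of pairs (15.8% from the same modules) and 85.7% of pairs within a module (62.4%) were listed. Their median connectivity percentile was 52.8, and the cause was not tested. That setting left no cinnamic acid gene, so it gave no value for that pair. No paired analysis was possible because single samples have no column in any of the 3 tables analysed. Weights have no replicate error, unlisted weights are unknown, and genes of a module are not independent, so that no difference of shares was tested.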
